A study of Mus musculus with 9 samples.

Results

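Fully grown mouse oocytes in which Mtor was targeted early in follicle growth, through Gdf9-Cre (MG), were compared with oocytes in which it was targeted later, through Zp3-Cre (MZ), across all genes detected in them. A gene entered the comparison when its level reached 1 FPKM (fragments per kilobase of transcript, scaled to the number of mapped fragments) in at least 3 of the 6 MG and MZ libraries. This left 10071 of 24228 genes. Of these, 843 reached that level in exactly 3 libraries, and 1046 genes that were left out reached it in exactly 2. Genes at this level in 1 group alone could enter: 102 genes reached it in all MG libraries and in no MZ library, 27 of them listed at 0 in all of MZ, and 40 showed the reverse, 15 of them listed at 0 in all of MG.

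mTOR is a kinase that works in a pair of complexes. Complex 1, built around Raptor, drives translation and growth and holds back autophagy when nutrients and growth factors are present, and complex 2, built around Rictor, phosphorylates Akt and related kinases. Gdf9-Cre is active in oocytes from the primordial follicle on, Zp3-Cre only once the oocyte has begun to grow, and neither acts in the granulosa cells around it. A growing oocyte stores the transcripts and proteins that meiosis and the early embryo will use, and transcription is largely shut down by the time it is fully grown. A transcript level at this stage is thus a sum of what was made and what was kept during growth.

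Each group had 3 libraries of germinal vesicle stage oocytes, still arrested in meiotic prophase, from C57BL/6 females given 5 IU of PMSG, a hormone that drives follicles to grow, 46 h earlier. The groups were WT (wild type), MG (conditional Mtor knockout with Gdf9-Cre) and MZ (the same with Zp3-Cre); WT libraries entered the fit and are shown beside the others. The series design gives an age of 23 days and the sample labels 6 months. The Mtor allele, the Cre status of the WT females and the number of oocytes and animals behind a library are not given in the sources used here, so p-values measure the spread between libraries, which may be technical. In bulk RNA, fewer cells of a type and less RNA per cell cannot be told apart.

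The libraries differed in ways that bear on all that follows. Steps between the lowest values put the depth at about 440000, 570000 and 780000 fragments in MG 1, 2 and 3 and at 430000, 680000 and 580000 in MZ, so that 1 fragment in a transcript of 1 kb was worth 1.83 FPKM in MG 3 and 3.30 FPKM in MZ 1. The FPKM of all genes summed to 554305, 514173 and 428329 in MG and to 677618, 675180 and 657851 in MZ (498936 ± 64355 against 670216 ± 10778, SD, n = 3 each). Every MG sum was below every MZ sum (exact permutation test, two-sided, p = 0.1, the smallest that 3 against 3 can give), while the WT sums were 718684, 584503 and 654424, 1 of them above the MZ range and the others between the ranges of MG and MZ. The 100 most abundant genes carried 67.4% of the MG to MZ difference. Since FPKM is scaled to mapped fragments, these sums do not measure the amount of RNA in an oocyte. Genes listed above 0 numbered 11682, 11615 and 12097 in MG and 10670, 11749 and 11865 in MZ (exact permutation test, two-sided, p = 0.6). Among MG libraries, MG 3 lay farthest from MZ in most lists of abundant transcripts, and the WT libraries were divided. The median of the Tcl1 family, for instance, lay at 0.12, -1.08 and -0.67 from the MZ mean in WT 1, 2 and 3 and at -1.18, -1.42 and -1.95 in MG, on the log2(FPKM + 1) scale.

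Markers of the oocyte were abundant in every library, all 17 of them tested, summing to 22996 to 40593 FPKM in MG and 43603 to 46117 in MZ. Granulosa markers, of which 5 of 16 were tested and Foxl2 and Amhr2 were listed at 0 in all 9 libraries, summed to 184 to 310.1 FPKM in MG and 231 to 295 in MZ. These sums were mostly 1 gene, with a mean of 245 FPKM over the 9 libraries, while the median of the 5 tested was 2.77 FPKM. Cumulus markers stayed at or below 6.29 FPKM in sum, with Lhcgr, Areg and Ereg at 0. Theca and stroma markers (7 of 13 tested; Acta2 and Insl3 at 0) summed to 29.4 to 52.1 FPKM in MG and 19.9 to 75.6 in MZ, and markers of blood, endothelium and immune cells (9 of 17 tested) to 163 to 285 and 108 to 331. The ranges of all 4 lists of other cell types overlapped between MG and MZ.

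The deleted gene did not tell the groups apart at the level of the whole transcript. Mtor was at 5.25, 6 and 4.64 FPKM in MG, 6.55, 4.67 and 4.39 in MZ and 3.25, 3.33 and 2.95 in WT. The MG and MZ values overlapped, with a log2 difference of 0.031 (SE 0.31, limma adjusted p = 0.975), and a sign that changed under 5 of 22 alternatives; both groups lay above WT. A gene-level FPKM also counts reads outside a deleted stretch, and the Mtor locus overlaps another row of the table, so this value does not check the deletion. Gdf9, whose promoter drives the earlier Cre and which encodes a factor the oocyte secretes to its granulosa cells, was the most abundant transcript, at 18400.0, 14939.6 and 7327 FPKM in MG and 17186, 18480.3 and 17781 in MZ. Zp3, a zona pellucida protein whose promoter drives the later Cre, was at 1402, 1089 and 555 and 1454, 1549.6 and 1406 FPKM. For Gdf9 and Zp3, MG 3 was the lowest library, and neither gene passed (log2 -0.50 and -0.63, limma adjusted p = 0.424 and 0.269; both turned positive under quantile normalization).

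Of the 10071 genes, 14 (0.139%) differed between MG and MZ at an adjusted p under 0.05 by limma on log2(FPKM + 1), with Benjamini-Hochberg adjustment over all tested genes. The level was higher in MG for 8 (0.0794%) and lower for 6 (0.0596%). The higher transcripts were Sirt1, Ddx4, Ccne2, Tspan3, Uchl4, Zfp707, Zfand1 and Olfr513, and the lower ones Nanos2, Hmgb2, B4galt4, Ndufb3, Cox8c and 1700069L16Rik. Of these, Zfand1, Olfr513, Cox8c and 1700069L16Rik were listed at 0 in all 3 libraries of the lower group. A larger set was separated without passing: the 3 MG values lay entirely above or below the 3 MZ values for 2662 genes (26.4%), 1346 higher (13.4%) and 1316 lower (13.1%) in MG, and an unadjusted p under 0.05 was reached by 1871 (18.6%), 878 higher (8.72%) and 993 lower (9.86%). In the authors' deposited table, made with Cuffdiff, 977 of these genes (9.7%) have a q-value under 0.05, 306 higher (3.04%) and 671 lower (6.66%) in MG, among them 9 of the 14.

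The number of genes that pass depends on the libraries in the fit. With the 6 MG and MZ libraries alone, 100 genes passed (0.993%), 26 higher (0.258%) and 74 lower (0.735%), all 14 among them. The count was 243 without WT 1, 1 without WT 3, 221 without MG 1, 3 without MG 2 and 3 without MG 3; it was 0 without any 1 of the MZ libraries, with 1447 to 1629 genes then under an unadjusted p of 0.05. When each library was set to the same FPKM sum, the median log2 difference over all genes moved from 0.041 to 0.40 and 35 genes passed, 29 higher and 6 lower. Quantile normalization gave 12 higher and 4 lower, and median-ratio scaling 9 and 10. A difference between genes is therefore read below against the median of all genes. Signs, in contrast, are counted against 0 over 22 alternatives. Of these, other variance models, a replicate block, fits without 1 or all WT libraries and no filter cannot move a log2 difference. Such alternatives bear on which genes pass, and a sign kept under them is no evidence of stability.

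**Figure D1:**
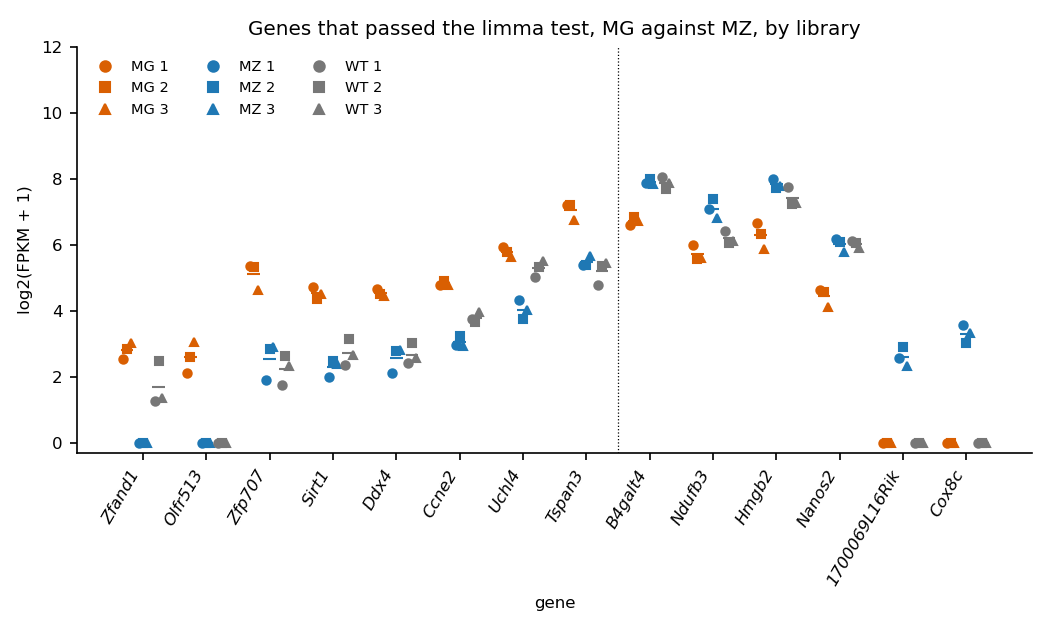
Level of the 14 genes that passed the limma test in each library, as log2(FPKM + 1); points are libraries, short lines group means, and the dotted line divides genes higher in MG (left) from genes lower in MG (right). MG and MZ do not overlap for any of the 14, and for Nanos2 and B4galt4 the WT points lie beside MZ.

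Regulators of germ cell RNA and of chromatin were among the genes higher in MG. Sirt1 (chr10:63319005-63381704, minus strand, GRCm38), an NAD-dependent deacetylase of histones and other proteins, was at 25.6, 19.4 and 21.7 FPKM in MG, 3, 4.61 and 4.28 in MZ and 4.13, 7.93 and 5.27 in WT. The lowest MG library was above every MZ and WT library, and the mean was 5.62-fold that of MZ (log2 2.23, SE 0.31, limma adjusted p = 0.0269). No other sirtuin passed: Sirt6 and Sirt7 had log2 differences of 0.36 and 0.45, and Sirt3 and Sirt5 of -1.09 and -0.69. Ddx4 (chr13:112598333-112652475, minus strand), the germ cell RNA helicase also called Vasa, was at 24.3, 22 and 20.7 FPKM in MG, 3.36, 5.93 and 6.02 in MZ and 4.35, 7.16 and 4.94 in WT. MG was again above all other libraries, 4.38-fold MZ (log2 1.96, SE 0.31, limma adjusted p = 0.0359).

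The promoters of these genes are shown because Sirt1 and Ddx4 share a sequence match there that the lower gene Nanos2 lacks. Each runs from 250 bases before to 50 after the RefSeq start (GRCm38.p6), 5′ to 3′ on the gene's strand, with capitals marking CACGTG, the palindromic core of the E-box that TFEB, TFE3 and MYC family factors bind. The positions are chr10:63338986-63339285 for Sirt1, chr13:112652261-112652560 for Ddx4 and chr7:18987274-18987573 for Nanos2, the last on the plus strand. The Sirt1 window lies inside the gene span given above, whose upstream end is at 63381704. That span comes from another annotation (GENCODE M21), so the window is not at its start.
Sirt1: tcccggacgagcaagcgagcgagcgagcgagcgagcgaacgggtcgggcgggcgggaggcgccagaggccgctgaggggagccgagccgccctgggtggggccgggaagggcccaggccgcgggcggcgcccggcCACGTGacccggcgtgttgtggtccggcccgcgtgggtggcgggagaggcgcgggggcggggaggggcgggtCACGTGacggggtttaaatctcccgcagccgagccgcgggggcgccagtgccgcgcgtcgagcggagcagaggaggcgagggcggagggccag
Ddx4: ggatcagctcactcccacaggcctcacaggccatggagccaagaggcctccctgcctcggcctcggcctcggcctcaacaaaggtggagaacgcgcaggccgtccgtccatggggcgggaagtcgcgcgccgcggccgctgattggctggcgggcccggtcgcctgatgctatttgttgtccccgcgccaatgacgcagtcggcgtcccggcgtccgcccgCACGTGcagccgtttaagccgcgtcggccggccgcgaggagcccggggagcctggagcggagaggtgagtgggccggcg
Nanos2: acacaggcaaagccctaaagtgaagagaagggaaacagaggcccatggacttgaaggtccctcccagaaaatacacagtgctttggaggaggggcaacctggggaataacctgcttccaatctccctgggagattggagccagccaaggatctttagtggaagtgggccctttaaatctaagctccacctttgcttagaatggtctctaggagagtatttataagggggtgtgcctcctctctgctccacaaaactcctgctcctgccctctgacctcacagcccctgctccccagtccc
Sirt1 holds the match starting at -115 and at -43 from the start, and Ddx4 at -29. Over all 32851 RefSeq promoters of this length, 7.15% hold CACGTG at least once and 0.594% at least 2 times. Of the 14 genes that passed, 10 have a promoter in the table: 2 of the 5 higher in MG and 0 of the 5 lower in MG hold the match. Other motifs were searched in the same promoters. The metal response element core (TGCACNC or TGCGCNC) was in 0 of the 5 higher and in 2 of the 5 lower, B4galt4 and Ndufb3. That core is in 25.7% of all promoters. A heat shock element (GAANNTTC) was in 0 of the higher and 0 of the lower. The promoters shown were picked for this contrast and are no evidence of it, and the counts are a description without a test. A match describes the letters in this window and is not shown to be a bound site.

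Ccne2 (chr4:11191351-11204779), a cyclin E that activates Cdk2, was at 26.7, 29.1 and 26.7 FPKM in MG, 6.9, 8.51 and 6.7 in MZ and 12.6, 11.6 and 14.5 in WT. The order was MG above WT above MZ with no overlap, and MG was 3.73-fold MZ (log2 1.77, SE 0.23, limma adjusted p = 0.0269). Ccne1, its close relative, was at 7.52, 6.77 and 4.2 FPKM in MG and 2.51, 0 and 2 in MZ and did not pass (limma adjusted p = 0.2). Tspan3 (chr9:56131725-56165477), a tetraspanin of the cell membrane, was at 148, 147 and 108 FPKM in MG against 40.7, 41 and 49.9 in MZ, 3.07-fold higher (log2 1.59, SE 0.23, limma adjusted p = 0.0283). It was the most abundant of the 8, and WT, at 26.4, 40 and 42.8 FPKM, lay at or below MZ. Uchl4 (chr9:64235201-64236362), a ubiquitin hydrolase gene of 1 exon, was at 60.6, 54 and 48.4 FPKM in MG, 19.2, 12.4 and 15.4 in MZ and 31.4, 38.8 and 45.1 in WT (log2 1.75, SE 0.23, limma adjusted p = 0.0269). WT again lay between, and since Uchl4 is a near copy of Uchl3 its reads could be split between them. Other rows of the table overlap both Ccne2 and Uchl4.

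Zfp707 (chr15:75969123-75975868), a zinc finger gene, was at 39.9, 39.2 and 23.8 FPKM in MG, 2.75, 6.17 and 6.57 in MZ and 2.38, 5.21 and 4.05 in WT, 6.64-fold higher in MG than in MZ (log2 2.55, SE 0.38, limma adjusted p = 0.0283). This was the widest ratio of means among the higher genes listed above 0 in MZ. Zfand1, a zinc finger protein of the stress granule and proteasome response, was at 4.83, 6.2 and 7.18 FPKM in MG, listed at 0 in all MZ libraries and at 1.39, 4.57 and 1.58 in WT. Olfr513, from the olfactory receptor family, was at 3.32, 5.08 and 7.32 FPKM in MG and listed at 0 in the other 6 libraries. Both genes entered the comparison only through MG, where they are high, so their passing is given as a description. These levels rest on few reads, about 49 fragments for Zfand1 and 17 for Olfr513 over the 3 MG libraries together, and a value of 0 can be a failed estimate.

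Of the higher genes, Sirt1, Ddx4, Tspan3, Zfp707 and Olfr513 passed against WT in MG and not in MZ. The comparisons share libraries, so their values are only set side by side, as log2 differences by limma. The difference of Sirt1 from WT was 1.81 (adjusted p = 0.0405) in MG and -0.43 (adjusted p = 0.861) in MZ. For Ddx4 the values were 1.87 (adjusted p = 0.0365) in MG and -0.10 (adjusted p = 0.971) in MZ. Tspan3 had 1.87 (adjusted p = 0.021) in MG and 0.29 (adjusted p = 0.882) in MZ, and Zfp707 2.86 (adjusted p = 0.021) and 0.31 (adjusted p = 0.902). Olfr513, which entered the comparison only through MG, had 2.59 (adjusted p = 0.0244) in MG and was listed at 0 in MZ and WT. For Ccne2 and Uchl4, the 3 WT libraries lay between the MG and the MZ libraries. Ccne2 had 1.04 (adjusted p = 0.0756) in MG and -0.73 (adjusted p = 0.683) in MZ, and Uchl4 0.50 (adjusted p = 0.278) and -1.25 (adjusted p = 0.214).

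Nanos2 was 1 of the 6 lower genes that passed. It encodes a zinc finger protein that represses RNAs in germ cells (chr7:18987400-18988962, 1 exon), and it was at 23.8, 22.6 and 16.3 FPKM in MG, 71.2, 66.9 and 54 in MZ and 68.2, 65.9 and 59.3 in WT. All 3 MG libraries were below all 6 others, and the MZ mean was 3.06-fold the MG mean (log2 -1.58, SE 0.21, limma adjusted p = 0.0269). Against WT the log2 difference was -1.59 (adjusted p = 0.021) in MG and -0.017 (adjusted p = 0.998) in MZ. Its relative Nanos1 was at 24.2, 28.9 and 12.3 FPKM in MG and 15, 17.8 and 14.2 in MZ, with overlapping groups, and Nanos3 was at 4.86, 0 and 0 in MG and 0 in MZ. B4galt4 (chr16:38742264-38769049), a galactosyltransferase of the Golgi, had the same shape: 97.2, 115 and 105 FPKM in MG, 236, 252 and 227 in MZ and 264, 206 and 233 in WT (log2 -1.17, SE 0.16, limma adjusted p = 0.0269). Its differences from WT were -1.14 (adjusted p = 0.0242) in MG and 0.032 (adjusted p = 0.989) in MZ by limma.

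Hmgb2 (chr8:57511907-57515999), a chromatin protein that bends DNA, was at 100.2, 80.1 and 58.1 FPKM in MG, 254, 210.0 and 219 in MZ and 214, 149.7 and 152 in WT. MZ was 2.87-fold MG (log2 -1.54, SE 0.23, limma adjusted p = 0.0283), and WT 1 lay with MZ while WT 2 and WT 3 lay between. Ndufb3 (chr1:58586384-58595964), a subunit of respiratory complex I, was at 62.5, 46.9 and 47.6 FPKM in MG, 134, 166 and 112 in MZ and 84.5, 65.5 and 68.8 in WT (log2 -1.37, SE 0.21, limma adjusted p = 0.0335). Here WT stood nearer to MG, and MZ was the group set apart.

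Cox8c, a subunit of cytochrome c oxidase first known from the testis, and 1700069L16Rik were listed above 0 in MZ alone. Cox8c was at 10.8, 7.17 and 9.11 FPKM in the MZ libraries and 0 in the other 6. Its log2 difference from WT in MZ was 3.31 (limma adjusted p = 0.0124). 1700069L16Rik was at 5, 6.5 and 4.07 FPKM in MZ and 0 elsewhere. Both genes entered the comparison only through MZ, so their passing is given as a description. Both transcripts are short, 458 and 706 bases, and the levels stand for an estimated 2 and 4 fragments over the 3 MZ libraries together. For Cox8c the estimate is below the number of libraries in which it was listed above 0, so it is rough for so short a transcript. Cox8c, 1700069L16Rik, Olfr513 and Zfand1 are the 4 of the 14 genes to which the authors' deposited table gives a p-value of 1. It gives that value to 6386 of the 10071 tested genes.

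Mt1 had the largest log2 difference of all tested genes, without passing. Metallothionein 1 binds zinc and copper, and its transcription responds to metals and glucocorticoids. It was at 17.1, 0 and 13.7 FPKM in MG, 453, 516 and 302 in MZ and 0, 0 and 8.26 in WT (log2 -6.01, SE 1.07, limma adjusted p = 0.0618, or 0.0396 with the 6 libraries alone). The lowest MZ library, at 302 FPKM, stood far above the highest of the other 6, at 17.1 FPKM. Its neighbour Mt2 was at 0, 15.1 and 0 FPKM in MZ and 0, 0 and 4.35 in MG and was not tested. The Mt1 promoter (chr8:94178839-94179138, plus strand, RefSeq, GRCm38.p6) is shown for its metal response element cores, TGCACNC or TGCGCNC on either strand, in capitals.
Mt1: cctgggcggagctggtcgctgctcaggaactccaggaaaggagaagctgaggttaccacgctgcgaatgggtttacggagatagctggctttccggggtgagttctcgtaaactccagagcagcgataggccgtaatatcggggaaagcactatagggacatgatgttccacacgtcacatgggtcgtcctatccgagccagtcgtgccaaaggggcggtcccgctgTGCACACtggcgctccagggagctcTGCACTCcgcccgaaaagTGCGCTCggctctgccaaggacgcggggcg
It holds 3 matches, starting at -23, 3 and 21 from the start, and 1.97% of all promoters hold 3 or more. The promoter of Mt2, which was not high in MZ like Mt1, holds 4. Other genes of metal binding and antioxidant defence lay on both sides: 11 of 30 tested members of that list were positive, 19 negative and 0 passed.

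Several further genes missed the threshold narrowly and were separated between the groups. Pxt1, a transcript known from male germ cells, was at 81.6, 87.2 and 77.4 FPKM in MG and 155, 167 and 208 in MZ, and Miox, myo-inositol oxygenase, at 99.5, 121 and 78 and 246, 234 and 217 (limma adjusted p = 0.0501 and 0.0501). Gpr1, a chemerin receptor, was at 313, 308 and 267 and 689, 733 and 601 FPKM, and Fam46c, a cytoplasmic poly(A) polymerase, at 717, 610.1 and 388 and 1843, 1662 and 1692 (limma adjusted p = 0.0501 and 0.0597). WT 1 lay in or near the MZ range for Gpr1 and Fam46c, and WT 2 and WT 3 lay between the groups, at 931 and 1009 FPKM for Fam46c. Oas1f, of the oligoadenylate synthetase family, was at 33.5, 27.2 and 15.7 FPKM in MG and 119, 90.3 and 73 in MZ (limma adjusted p = 0.0505).

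In the other direction, Prr13 was at 95, 126 and 176 FPKM in MG and 27.9, 45.8 and 40.8 in MZ (limma adjusted p = 0.0501), with WT at 75.5, 114 and 128. B3gnt2, a glycosyltransferase that extends lactosamine chains, was at 158, 135 and 110.4 FPKM in MG and 57, 66.6 and 66.5 in MZ, with WT beside MZ at 60.3, 66.1 and 62.1 (limma adjusted p = 0.0576). Cd69, known as a surface lectin of activated lymphocytes, was at 17.4, 26.7 and 58.9 FPKM in MG and 3.15, 4.04 and 7.54 in MZ (limma adjusted p = 0.0624). Fmr1, the RNA-binding protein FMRP that restrains translation, was at 6.19, 8.78 and 11.6 and 1.56, 1.99 and 1.65 FPKM (limma adjusted p = 0.0694). MG 3 was the highest library for Prr13, Cd69 and Fmr1 and the lowest of MG for B3gnt2.

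The direction of a difference moved with the level of the transcript. Over deciles of the genes by mean FPKM, the median log2 difference between MG and MZ went from 0.21 in the lowest decile to -0.39 in the highest, where 516 genes had all MG values below all MZ values and 48 all above. It also moved with the transcript itself: the median ran from -0.23 in the decile of the shortest transcripts to 0.23 in that of the longest, and from 0.23 in the decile lowest in GC content to -0.24 in the highest. By library, the decile highest in GC lay at 0.073, -0.13 and -0.55 from the MZ mean in MG 1, 2 and 3, so this slope was mostly that of MG 3. The decile highest in level lay at -0.25, -0.35 and -0.58, below MZ in every MG library. Within that decile the median was -0.28 in the quartile of genes lowest in GC and -0.61 in the quartile highest, against 0.26 and -0.11 for all other genes. Removing the slopes with GC content and length left 25 genes passing, 12 higher and 13 lower. The slope with level was not removed in any fit. What these slopes contribute to any gene list was not tested further.

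**Figure D2:**
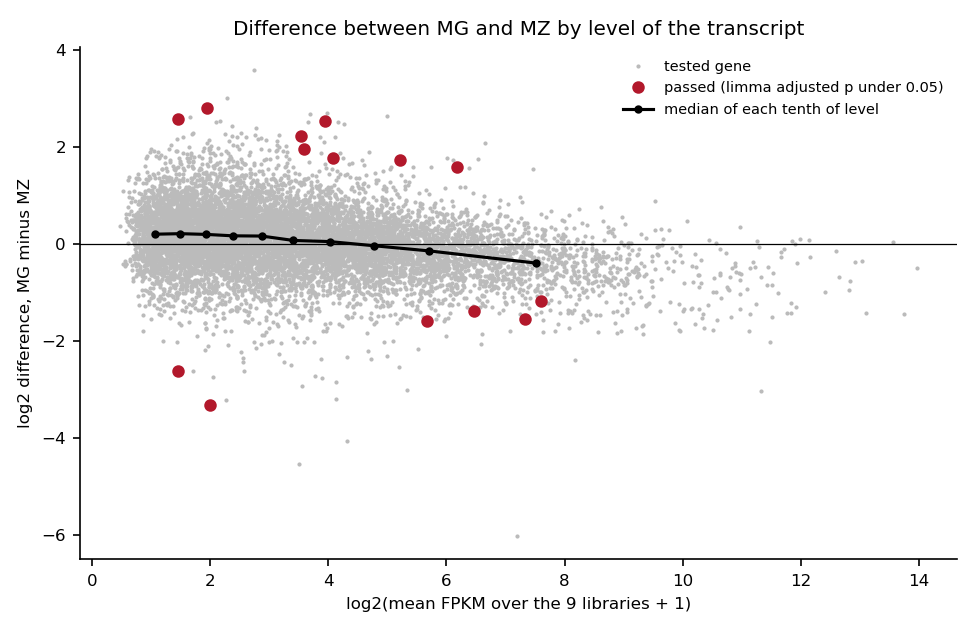
Log2 difference between MG and MZ (positive is higher in MG) against the mean level of each of the 10071 genes, both on the log2(FPKM + 1) scale; red points passed the limma test, and black points are medians of deciles by level. The medians pass from 0.21 at the left to -0.39 at the right.

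**Figure D3:**
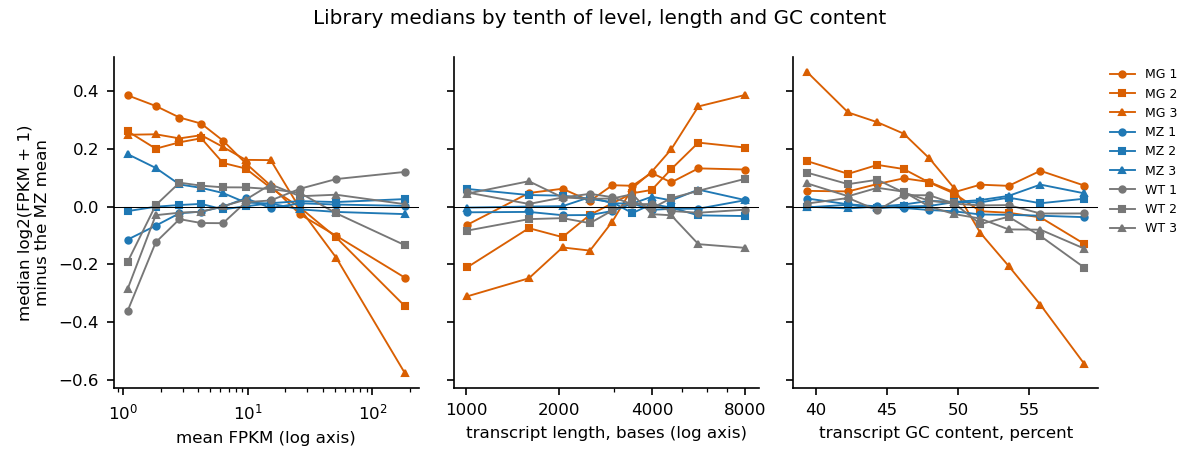
Median over genes of log2(FPKM + 1) minus the MZ mean in each library, by decile of mean level, transcript length and transcript GC content. MG 3 (orange triangles) has the steepest lines, reaching -0.55 in the decile highest in GC content, and all 3 MG libraries lie below 0 in the decile highest in level.

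Abundant transcripts of the oocyte's own gene families lay lower in MG in most members, without passing. The families encoded in oocyte gene clusters (oogenesins, Obox, Tcl1 and others) were tested in 30 members, of which 23 were negative and 7 positive, with a median log2 difference of -0.61 (0.10 under quantile normalization) against 0.041 for all genes. All MG values were below all MZ values for 19 of the 30 and above for 1, against 13.1% and 13.4% of all genes. The median level of the list, 1541 FPKM, lies in the highest decile by level. In that decile 516 of 1007 genes were below and 48 above, with a median of -0.39. Transcripts of this list are low in GC (44.0% in the median, against 48.9% for all genes). The list median was -0.52 with GC and length slopes removed and -0.44 without MG 3. Near-identical copies in these clusters can exchange reads, so a value belongs to a family more than to 1 gene.

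In the Tcl1 family, named for a coactivator of Akt kinase, all 6 members were negative without overlap, with a median of -1.45 that kept its sign under all 22 alternatives (-1.66 to -0.98). Tcl1b1 was at 860.3, 675 and 449 FPKM in MG, 2502, 1821 and 2252 in MZ and 2349.6, 1044 and 1121 in WT, and Tcl1b2 at 529, 504 and 315, 1431, 1243 and 1363 and 1472, 627 and 878 (limma adjusted p = 0.0624 for each, 0.0368 with the 6 libraries alone). WT 1 lay in or just above the MZ range for both genes, and WT 2 and WT 3 lay between MG and MZ. Tcl1 itself, far more abundant, differed least, at 6946, 6775 and 4379 FPKM in MG and 6947, 8285 and 7768 in MZ. The homeobox genes Obox1, Obox2 and Obox5 were also separated: Obox5 was at 2647, 2307 and 1237 FPKM in MG and 4551, 4554 and 4534 in MZ (log2 -1.21, limma adjusted p = 0.0768). Among the oogenesins, leucine-rich repeat proteins of the oocyte, Oog1 and Oog2 were separated and Oog3 and Oog4 were not. Oog1 was at 87.7, 84.3 and 54.6 FPKM in MG and 219, 236 and 161 in MZ, while Oog3 was at 2754, 3857 and 3980.0 and 3854, 3229 and 3394. The 11 tested oocyte Fbxw genes had a median of 0.032 (0.66 under quantile normalization), whose sign changed under 4 of 22 alternatives, among them without MG 3.

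**Figure D4:**
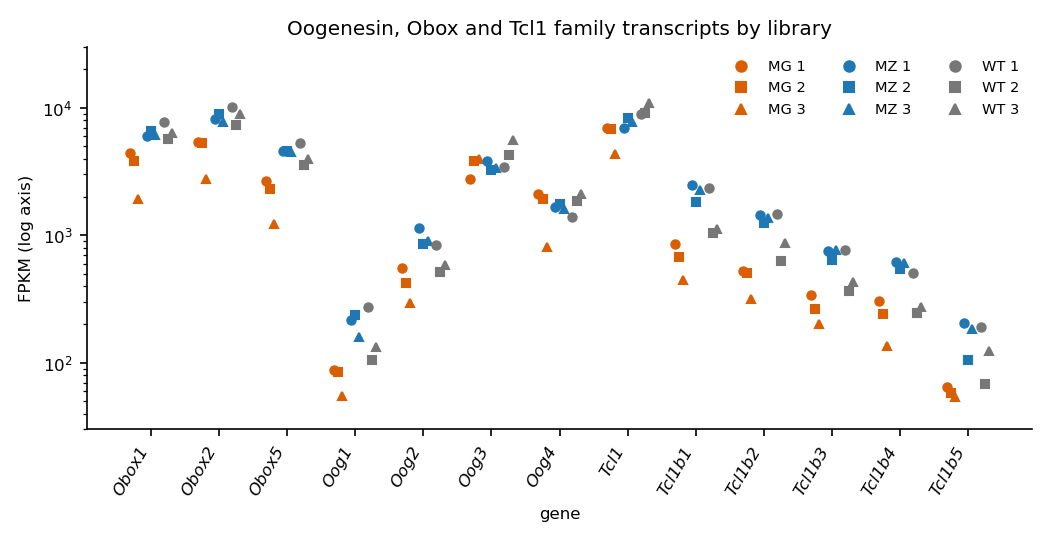
FPKM (log axis) of the Obox, oogenesin and Tcl1 family genes in each library; points are libraries, and Obox3, which is at 0 in some, is left out. The MG points of Tcl1b1 to Tcl1b5, Obox1, Obox2, Obox5, Oog1 and Oog2 lie below all MZ points, those of Oog3 and Oog4 overlap them, and WT 1 lies nearer to MZ than WT 2 and WT 3 do for the Tcl1b genes.

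The subcortical maternal complex, a protein assembly under the oocyte membrane that the embryo needs to pass its first cleavages, gave 7 negative and 1 positive of 8 tested members, with a median of -0.67. Ooep was at 719.6, 481 and 250.1 FPKM in MG, 1726, 1378 and 1418 in MZ and 1689.7, 598 and 574 in WT (log2 -1.76, limma adjusted p = 0.0787). Zbed3 was at 13019, 7760.1 and 3162 and 17042, 19140.5 and 18994 FPKM (limma adjusted p = 0.12), the second most abundant transcript of all. The exception was Nlrp5, also called Mater, at 1068, 974 and 944 FPKM in MG against 483, 542 and 574 in MZ and 418, 608 and 1033 in WT (log2 0.90, limma adjusted p = 0.116). The list median kept its sign under all 22 alternatives, between -0.87 and -0.14, and was -0.42 without MG 3. By library it lay at -0.094, -0.56 and -1.17 from the MZ mean in MG 1, 2 and 3. In WT 1, 2 and 3 it lay at 0.062, -0.58 and -0.32, so WT 2 and WT 3 were below MG 1.

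Among factors the oocyte shows to its surroundings, 11 of 17 were negative, with a median of -0.50 (0.015 under quantile normalization), and 0 passed. By library the median lay at 0.032, -0.37 and -1.09 from the MZ mean in MG 1, 2 and 3 and at -0.073, -0.47 and -0.61 in WT. Of the 17, 7 were separated below and 1 above. The median level was 254 FPKM, in the highest decile by level, where 516 of 1007 genes were below and 48 above. Oosp1, a secreted protein, was at 449.5, 272 and 176 FPKM in MG, 1127, 950.1 and 922 in MZ and 1196, 353 and 343 in WT, and Izumo1r, the egg receptor Juno for sperm, at 109, 107 and 55.5, 367, 291 and 264 and 318, 123 and 137 (limma adjusted p = 0.0787 and 0.0684). Gja4, connexin 37 of the gap junctions to granulosa cells, was at 995, 606 and 330.1 FPKM in MG and 2013, 1916 and 1879 in MZ (limma adjusted p = 0.0747). For all 3 genes WT 1 was above or within the MZ range and WT 2 and WT 3 were near MG 1. Kit, the receptor for granulosa Kit ligand, went the other way, at 58.5, 65.5 and 63.8 FPKM in MG and 45.6, 38.5 and 46.7 in MZ (limma adjusted p = 0.174). The list median was -0.20 without MG 3.

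Oocyte transcription factors were split: 10 of 19 were positive and 9 negative, and 13 of the 19 were separated, 7 above and 6 below (13.4% and 13.1% of all genes). Pou5f1, the pluripotency factor Oct4, was at 35.6, 38.5 and 26.4 FPKM in MG and 84.5, 110.0 and 79.7 in MZ (log2 -1.42, limma adjusted p = 0.0684). Gtf2b, a general factor of RNA polymerase II, was at 120.0, 117 and 61.8 and 312, 256 and 217 FPKM (limma adjusted p = 0.0773). On the higher side, Trp63, which encodes the p63 guardian of the oocyte genome, was at 9.74, 11.6 and 10.2 FPKM in MG and 1.95, 2.5 and 3.89 in MZ, and Yy1 at 4.12, 8.75 and 8.06 and 0, 0.661 and 2.46 (limma adjusted p = 0.0773 and 0.0798). Hmgb2 was the 1 member that passed.

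Genes of protein synthesis and breakdown were counted by list, and 0 members of any of them passed. Of 58 tested cytosolic ribosomal proteins, 51 were negative and 7 positive, with a median of -0.77, and 17 were separated below and 0 above (against 13.1% and 13.4% of all genes), while 0 passed. The median was -0.68 for the 33 of the large subunit and -0.83 for the 25 of the small subunit. Rpl39 was at 199.6, 146 and 112 FPKM in MG, 389, 396 and 277 in MZ and 532, 354 and 227 in WT, and Fau, which encodes the small subunit protein S30, at 21.1, 11.5 and 11.5, 50.6, 33.2 and 53.8 and 19.7, 21 and 22 (limma adjusted p = 0.0798 and 0.0604). Summed over the 58 members, the level was 2885, 2189 and 1413 FPKM in MG 1 to 3, 4534, 3829 and 3740.3 in MZ and 4443, 2545 and 2359.8 in WT. WT 1 lay within the MZ range and WT 2 and WT 3 within that of MG. These transcripts are short, 1102 bases in the median against 3196 for all genes. With length and GC slopes removed the medians were -0.47 and -0.56 for the large and small subunits, and without MG 3 they were -0.41 and -0.49. Ribosomal protein genes have many processed copies, so the authors' counting could split their reads.

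The proteasome, which degrades proteins marked with ubiquitin, had 27 of 33 tested subunits negative and 6 positive, a median of -0.41 (0.012 with equal FPKM sums, where all genes were at 0.40), and 13 separated below and 1 above (13.1% and 13.4% of all genes), with 0 passing. Psmb7, a catalytic subunit, was at 46.4, 37.9 and 23.9 FPKM in MG and 79.2, 72.8 and 81 in MZ, and Psma4 at 36.4, 37.9 and 33.1 and 69.4, 72.9 and 70.2 (limma adjusted p = 0.0747 for each). Initiation and elongation factors were closer to the median of all genes, at -0.11, with 28 of 47 negative. Eif1, which helps the ribosome choose its start codon, was at 128, 119 and 85 FPKM in MG and 240.3, 242 and 238 in MZ, and Eif1a on the other side at 12.1, 5.63 and 7.7 and 0.812, 1.56 and 3.23 (limma adjusted p = 0.0747 and 0.0798). Mitochondrial ribosomal proteins had a median of -0.13 over 76 members and aminoacyl-tRNA synthetases of -0.048 over 20. The medians of these 2 lists and of the initiation and elongation factors turned positive with equal sums. They were then 0.27, 0.34 and 0.27 in that order, still below the 0.40 of all genes. The median of the synthetases turned positive also without MG 3 and with a filter of 5 FPKM.

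Among nuclear genes of the respiratory chain, Ndufb3 was lower in MG than in MZ, with WT nearer to MG, as described above. Cox8c was listed above 0 in MZ alone. In complexes II to V, 30 of 39 members were negative, with a median of -0.41 (0.022 with equal sums), and 15 were separated below and 1 above (13.1% and 13.4% of all genes). Cox8a was at 323, 172 and 86.4 FPKM in MG and 538, 469.8 and 453 in MZ, and Cox7a2 at 41.2, 24.4 and 37.6 and 75.8, 83.9 and 76 (limma adjusted p = 0.0876 and 0.0898). In complex I, 23 of 33 were negative with a median of -0.22, which became 0.11 with GC and length slopes removed and 0.15 with equal sums. Ndufa3 was listed at 0 in all 3 MG libraries, at 25.9, 17.9 and 23.2 FPKM in MZ and at 26.1, 0 and 0 in WT (limma adjusted p = 0.0747, or 0.00414 with the 6 libraries alone). WT 1 was thus near the MZ level, and WT 2 and WT 3 were listed at 0 as in MG. Ndufa3 entered the comparison only through MZ, where it is high, so its p-values are given as a description. Glycolysis and the TCA cycle (29 members, median -0.15) and sterol and fatty acid synthesis (24 members, -0.014) had medians nearer to 0, with 0 genes passing in either; their signs changed under 1 of 22 and 7 of 22 alternatives (0.27 and 0.34 with equal sums).

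The mTOR pathway was followed from the complexes to their targets, and 0 of its tested members passed. Of 44 genes of the complexes and their inputs, 20 were positive and 24 negative, with a median of -0.086 (0.29 with equal sums), and 6 were separated above and 5 below, a share close to the 26.4% of all genes. Rptor, which encodes the scaffold Raptor of complex 1, was at 1.57, 1.94 and 1.58 FPKM in MG and 0.631, 0.605 and 2 in MZ, and Rictor, the scaffold of complex 2, at 8.3, 6.43 and 8.95 and 6.75, 3.72 and 7.55; both overlapped. Deptor, a subunit that inhibits both complexes, was at 21.2, 27.4 and 27 and 25.3, 23.3 and 22.3 FPKM. Mapkap1, the complex 2 subunit Sin1, was separated, at 14, 24.5 and 16.9 FPKM in MG, 30.3, 39.2 and 25.8 in MZ and 47.1, 36.3 and 46.2 in WT (log2 -0.77, limma adjusted p = 0.145). Mlst8, shared by both complexes, and Tsc2 stayed too low to test.

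Among the inputs, Lamtor3, a part of the Ragulator that docks complex 1 on the lysosome, was at 250.2, 284 and 266 FPKM in MG and 518, 444 and 393 in MZ, and Akt1s1, the inhibitor PRAS40, at 32.2, 40.7 and 10.2 and 50.3, 61.7 and 56.9 (limma adjusted p = 0.093 and 0.143). Rheb, the GTPase that activates complex 1, overlapped between the groups at 76.6 to 106 and 89.4 to 139 FPKM. On the higher side was the kinase Pdpk1, at 15.4, 21.4 and 19.7 FPKM in MG and 12.4, 13.1 and 7.61 in MZ (limma adjusted p = 0.174). Of 23 effectors, 13 were positive and 10 negative, with a median of 0.055. Rps6kb1, the S6 kinase, was at 5.31, 6.96 and 11.5 FPKM in MG and 2.06, 4.47 and 4.24 in MZ, and Pdcd4, a translation repressor that S6 kinase marks for destruction, at 14.7, 12.4 and 38.1 and 4.81, 11.2 and 8.16 (limma adjusted p = 0.215 and 0.155). Eef2k, the kinase that slows elongation, was at 1.4, 3.24 and 3.53 and 7.74, 7.42 and 4.46 FPKM, and Tfe3, an E-box factor held in the cytoplasm by mTOR, at 37, 28.6 and 29.3 and 42.8, 45.5 and 43.6 (limma adjusted p = 0.218 and 0.415). Inputs and effectors thus had genes without overlap on both sides: Lamtor3, Eef2k and Tfe3 lay below in MG, and Pdpk1 and Pdcd4 above. Autophagy (32 members) and lysosome genes (35 members) had medians of -0.047 and 0.12 with 0 passing; their signs changed under 5 of 22 alternatives (0.33 with equal sums) and 2 of 22 (-0.016 with GC and length slopes removed).

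The cyclin B and Cdk1 switch with the anaphase-promoting complex had 31 of 48 members negative and 17 positive, with a median of -0.30 (0.10 with equal sums), and 18 separated below and 2 above (13.1% and 13.4% of all genes). Mos, the kinase that holds the egg at metaphase II, was at 1407, 1034 and 686 FPKM in MG, 2264, 2095 and 2142 in MZ and 2260.5, 1193 and 1369 in WT, and Aurka, a spindle pole kinase, at 133, 145 and 97.4, 265, 239 and 248 and 285, 216 and 245 (limma adjusted p = 0.0827 and 0.0624). Cyclins A, D and E with their kinases and inhibitors had 21 of 30 members positive and 9 negative, with a median of 0.15, and 9 separated above and 3 below (13.4% and 13.1% of all genes). Ccne2 was the 1 that passed. The kinase inhibitor Cdkn2c was at 13, 7.95 and 8.61 FPKM in MG and 2.56, 1.65 and 4.11 in MZ, and Ccno, an abundant member on the lower side, at 922, 474 and 184 and 1578, 1423 and 1449 (limma adjusted p = 0.131 and 0.104). The median of this list kept its sign under all 22 alternatives, between 0.091 and 0.53, the last with equal sums, where all genes were at 0.40. Kinetochore, checkpoint and spindle genes (63 members) had a median of -0.024, whose sign changed under 4 of 22 alternatives (0.33 with equal sums).

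Genes of cAMP control, through which the follicle keeps the oocyte in prophase, had 11 of 16 members positive and a median of 0.27, with 0 passing. Gpr3, the receptor that sustains cAMP in the oocyte, was at 19.3, 28 and 10.1 FPKM in MG and 30.6, 32.7 and 29.8 in MZ, and Prkar1a, a regulatory subunit of protein kinase A, at 37.2, 52.7 and 50.9 and 29, 34.1 and 36.2 (limma adjusted p = 0.213 and 0.263). Of the writers, erasers and readers of m6A RNA methylation, 15 of 18 were positive, with a median of 0.39, and 6 were separated above and 1 below (13.4% and 13.1% of all genes). Ythdf2, the reader that sends marked RNAs to decay, was at 100.5, 78.1 and 71.5 FPKM in MG, 40, 44.8 and 56 in MZ and 27.2, 38.8 and 33.6 in WT, and Cbll1, a writer subunit also called Hakai, at 12.9, 17 and 25.9, 8.49, 8.33 and 8.08 and 5.36, 11.2 and 11.1 (limma adjusted p = 0.0908 and 0.143). These transcripts are long and low in GC, 5102 bases and 44.4% in the median, and with those slopes removed the median was 0.13.

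Genes of maternal RNA decay lay on both sides. Over 42 genes of maternal mRNA decay the median was 0.10, with a sign that changed under 2 of 22 alternatives. Btg4, an adaptor that brings the CCR4-NOT deadenylase to maternal RNAs, was at 1889.8, 1431 and 831 FPKM in MG and 2409, 2699 and 2364 in MZ, and Cnot7, a catalytic subunit of that deadenylase, at 177, 209 and 197 and 413, 356 and 328 (limma adjusted p = 0.106 and 0.0624). Btg2, of the same family, was at 11.2, 11.6 and 7.56 FPKM in MG and 3.01, 2.41 and 5.98 in MZ, and the exosome subunit Exosc4 at 57.4, 52.9 and 56.3 and 32.2, 35 and 33.5 (limma adjusted p = 0.101 and 0.128). The MG libraries lay below the MZ libraries for Btg4 and Cnot7 and above them for Btg2 and Exosc4. Among germ cell RNA regulators (26 members, median 0.10), Ddx4 and Nanos2 passed in opposite directions. Tex15, needed for piRNA silencing in the male germ line, was at 19, 29.9 and 27.6 and 11.9, 11.9 and 10.5 FPKM, and Brdt, a bromodomain protein of the germ line, at 161, 135 and 117 and 244, 243 and 233 (limma adjusted p = 0.0787 and 0.0695).

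Clustered core histones had 17 of 22 members negative, a median of -0.63, 6 separated below and 0 above, and 0 passing. The share without overlap, 27.3%, was near the 26.4% of all genes. Hist1h2bc was at 239, 219 and 205 FPKM in MG, 379, 376 and 405 in MZ and 429, 419 and 370.1 in WT (log2 -0.80, limma adjusted p = 0.0624). These transcripts are short and rich in GC (616 bases and 57.5% in the median), and the median was -0.31 with those slopes removed and -0.42 without MG 3; by library it lay at 0.073, -0.70 and -0.93 from the MZ mean in MG 1, 2 and 3. Histone genes have near-identical copies that can exchange reads. H3f3a, which encodes the replacement histone H3.3, was at 309, 222 and 157 FPKM in MG, 735, 628 and 679.8 in MZ and 819, 288 and 338 in WT, whereas Hmgn2, a nucleosome-binding protein, was at 34.9, 77.1 and 84.7, 4.33, 15.3 and 10.4 and 3.77, 26.7 and 19.2 (limma adjusted p = 0.0747 and 0.0773). Among DNA and histone modifiers (57 members, median 0.073, or -0.14 with GC and length slopes removed), Sirt1 passed, and Kdm1b, the histone demethylase needed for maternal imprints, was at 134, 123 and 91.4 FPKM in MG, 44.4, 50.2 and 54.6 in MZ and 52, 75.7 and 38.6 in WT (limma adjusted p = 0.0724). Zfp57, which guards imprints in the embryo, was at 2487, 2143 and 1476 and 3995, 3882 and 4082 FPKM in MG and MZ (limma adjusted p = 0.0839).

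**Figure D5:**
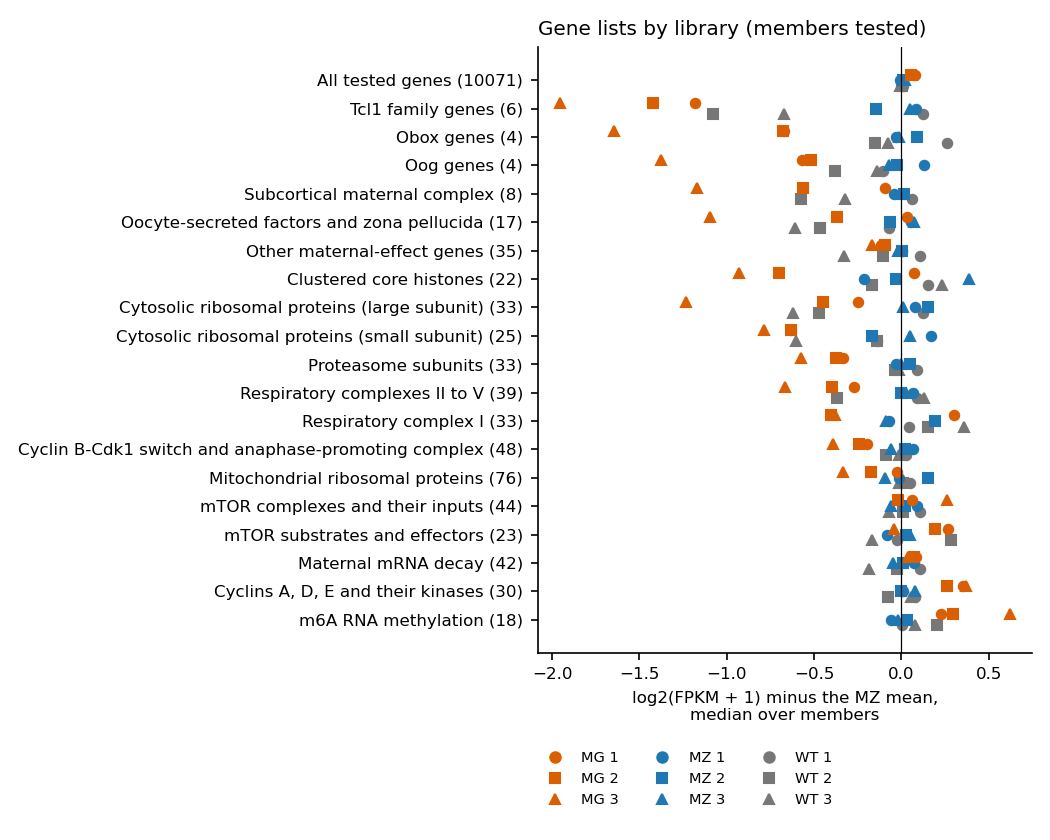
Median over the tested members of a list (number in brackets) of log2(FPKM + 1) minus the MZ mean, for each library. MG 3 is the lowest library for the Tcl1, Obox, Oog, subcortical complex and ribosomal protein lists, all 3 MG libraries are below 0 for the Tcl1 (-1.18, -1.42 and -1.95) and ribosomal lists and above 0 for m6A methylation, and all tested genes lie near 0.

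Stress genes gave no shared direction. The list of ER stress and ATF4 targets had 18 of 31 members positive and a median of 0.15, and Atf4 itself, whose protein mTOR complex 1 promotes, was at 136, 113 and 53.6 FPKM in MG, 335, 232 and 282 in MZ and 327, 162 and 144 in WT (log2 -1.56, limma adjusted p = 0.0773). Of chaperones, 19 of 37 were positive; the co-chaperone Hsph1 was at 79.1, 93 and 91.6 FPKM in MG, 38.7, 34.5 and 48 in MZ and 19.8, 24.8 and 13.5 in WT, and Dnajb4 at 189, 216 and 243, 379, 359.5 and 368 and 463, 446 and 563 (limma adjusted p = 0.0747 and 0.0724). DNA repair genes (47 members) had a median of 0.12, with a sign that changed under 1 of 22 alternatives. Among apoptosis genes (18 members, median 0.061, -0.082 under quantile normalization), Bcl2l10, a survival factor abundant in oocytes, was at 5601, 5887 and 3740.5 FPKM in MG and 8329.5, 8491 and 8405 in MZ, and Mcl1 at 13.7, 9.62 and 8.44 and 3.95, 2.53 and 8.36 (limma adjusted p = 0.107 and 0.187). No gene of these 4 lists passed (0 in each).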

How the data were processed

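Fully grown oocytes were profiled in 9 libraries (3 WT, 3 MG, 3 MZ), amplified by Smart-seq2, made with the NEBNext Ultra kit and read as 150 bp pairs, per the labels' protocols. The authors aligned reads to mm10 with TopHat2 2.0.13 and computed the deposited FPKM with Cufflinks 2.2.1, per the submitters' processing notes. The deposited table also holds the authors' p-value and q-value per pair of groups, made with Cuffdiff. No source used here states the use of strand, so overlapping and antisense genes cannot be told apart.

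Of 24255 rows, 27 had a symbol turned into a date and were left out. The main test was limma 3.58.1 (R 4.3.3; eBayes with a variance trend) on log2(FPKM + 1) over all 9 libraries, with 6 residual degrees of freedom, two-sided, Benjamini-Hochberg over 10071 genes, threshold 0.05. Differences on this scale understate changes of low genes. The steps were tested on simulated data. Symbols were matched to GENCODE M21 (GRCm38; 95.9% of tested genes) for coordinates, length and GC content, and 2055 tested genes share a locus with another row. Fragment numbers are estimates from the steps between low values; reads without molecular identifiers are not independent molecules.

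The genes compared, the 45 lists and the tests were chosen with earlier results of these data known. Named genes are Mtor, Gdf9 and Zp3; those that passed; up to 10 per direction next in p without overlap and with a mean of at least 5 FPKM in the higher group; up to 3 per list and direction by p; and the 5 per direction with the largest difference in FPKM. List members outside this rule (sirtuins, Ccne1, Nanos1, Nanos3, Mt2, the mTOR core subunits, Rheb, and Obox, Oog and Tcl1 genes) were named for being relatives, after their values were seen. Some genes that the rule names are not reported here. Lists are described by counts and medians without a test. Alternatives covered pseudocount, filter, scaling, variance model, the libraries fitted, a replicate block and leaving out each library.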

Additional observations from a re-analysis of the deposited data

How the results depend on the processing

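The count of 14 genes was 6 with a pseudocount of 0.1 and 57 with 5, 9 without a filter on low values and 43 with FPKM of at least 5 in 3 of 6 libraries, 35 with equal FPKM sums, 9 without a variance trend, 100 with the 6 MG and MZ libraries alone and 25 with GC and length slopes removed, an alternative chosen after seeing the data, as was median-ratio scaling. It stayed between 14 and 19 with upper quartile, quantile and median-ratio scaling and a robust variance model. Leaving out 1 library in turn gave 0 to 243. With a replicate block it was 170, but same-numbered MG and MZ libraries did not deviate together (correlations -0.069, 0.0061 and -0.066), so the numbers are not read as pairs. The cause of these shifts was not tested. The difference in FPKM sum kept its sign, from -198965 to -135977 leaving out 1 library, -136299 without the 10 most abundant genes and -167274 without Rn45s, a row for ribosomal RNA (chosen after seeing the data). The difference of 370.0 in genes listed above 0 lay between -9 and 588.5 leaving out 1 library, with -9 without MZ 1. Among named genes, signs changed under quantile normalization for Ywhae (0.11), Syce2 (0.013), Zp3 (0.12), Gdf9 (0.092), Atp6v0e (0.042) and Mtor (-0.13), and with equal sums for Atg12 (0.047), Atp6v0e (0.073) and Pik3r4 (0.091). Leaving out 1 library gave Mtor -0.062 (without MZ 3) to 0.18 (without MZ 1), with a negative sign also without MG 2 and without MZ 2, and it was -0.038 with GC and length slopes removed. About 430000 to 780000 fragments per library limit genes under a few FPKM to a handful of reads.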

Other observations

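The row for the 45S ribosomal RNA precursor, Rn45s, was at 1324, 591 and 185 FPKM in MG, 7582, 2662 and 3875 in MZ and 6038, 714 and 152 in WT. The MG values lay below the MZ values (limma adjusted p = 0.17), and WT 1 was in the MZ range while WT 3 was below all MG libraries. WT 1 also lay in the MZ range for Tcl1b1 and Ooep. Its part in the other differences was not tested.

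Other transcripts of interest lay higher in MG without passing. Per3, a period gene of the circadian clock, was at 75.9, 118 and 393 FPKM in MG and 32, 39 and 34.4 in MZ, with MG 3 far above the other MG libraries (limma adjusted p = 0.0798). Noto, a homeobox gene known from the notochord, was at 293, 331 and 274 and 59.1, 125 and 140.3 FPKM, with WT at 55.4, 133 and 163 (limma adjusted p = 0.0819). Tcstv1, a transcript known from the embryo at its first cleavage, was at 377, 541 and 537 FPKM in MG, 274, 267 and 299 in MZ and 391, 398 and 456 in WT (limma adjusted p = 0.0773).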
